A study of Homo sapiens with 18 samples.

Results

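The 232 zinc finger genes of chromosome 19 were examined in RNA-seq libraries of a pair of breast cancer cell lines before and after olaparib, an inhibitor of poly(ADP-ribose) polymerase (PARPi). A member was a protein-coding gene on chromosome 19 whose symbol begins with ZNF and whose raw counts summed to at least 90 over the 18 libraries, and 232 of 241 such genes met that minimum, among 35023 genes in the count table. Just inside the minimum lay ZNF564 with 90 counts and the readthrough ZNF559-ZNF177 with 114, and just outside it ZNF20 with 82 and ZNF625 with 74. The parent of both lines is HCC1937, a breast cancer line with a truncating mutation in BRCA1, a gene needed for repair of DNA breaks by homologous recombination. HCC1937-EV received a vector without an insert, whereas HCC1937-OE-BRCA1 overexpresses wild-type BRCA1 beside the truncated form. Each line was sampled untreated, after 12 h and after 24 h of olaparib, with 3 libraries per condition. In the labels the 0 h libraries also carry the entry olaparib and HCC1937-EV has the genotype WT, whereas the study's text treats 0 h as untreated and HCC1937-EV as BRCA1-mutated. Whether libraries came from separate cultures is not stated, so the p-values measure only the spread between these libraries. Of the 232 members, 231 passed the filter on low counts, ZNF564 being the exception, and many of them passed through the libraries of a single line. These are bulk libraries of cultured cells, in which fewer cells of a type and less RNA per cell cannot be told apart.

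Most of these genes encode KRAB zinc finger proteins. Their C2H2 fingers each hold a zinc ion and read a short stretch of DNA, and the KRAB domain binds TRIM28 (KAP1), which brings the methyltransferase SETDB1 and HP1 proteins that lay down and read H3K9 methylation. The family expanded by tandem duplication, chiefly on chromosome 19, and many members bind the sequences of retroelements and repress them. A KRAB-like stretch was found in the translated coding sequence of 199 members and not in those of the other 33. The KRAB-like members had a median of 13 fingers and a median exonic GC content of 43.0%, and the other 33 had a median of 8 fingers and 60.2% GC, against a median GC of 48.7% over the 13825 protein-coding genes tested. With a new cluster begun at each gap over 1 Mb, the members fell into 15 positional clusters (GRCh38), of which cluster 5 at chr19:19668796-24129961 holds 30 members, cluster 8 at chr19:36182060-37817300 holds 27, cluster 14 at chr19:51571298-53580269 holds 38 and cluster 15 at chr19:55476332-58481230 holds 59.

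The starts of these genes are shown for 3 members that had almost no counts in HCC1937-EV and for 2 that were expressed in both lines. Each is the 200 bases before the first listed RefSeq start (GRCh38.p14), written 5′ to 3′ on the gene's strand, with every CpG in capitals.
ZNF83 (minus strand, chr19:52690497-52690696): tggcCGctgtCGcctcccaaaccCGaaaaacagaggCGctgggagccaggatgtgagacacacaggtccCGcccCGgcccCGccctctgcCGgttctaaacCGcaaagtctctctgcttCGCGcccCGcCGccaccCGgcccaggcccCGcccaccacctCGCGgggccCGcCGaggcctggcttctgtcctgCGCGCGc
ZNF382 (plus strand, chr19:36605113-36605312): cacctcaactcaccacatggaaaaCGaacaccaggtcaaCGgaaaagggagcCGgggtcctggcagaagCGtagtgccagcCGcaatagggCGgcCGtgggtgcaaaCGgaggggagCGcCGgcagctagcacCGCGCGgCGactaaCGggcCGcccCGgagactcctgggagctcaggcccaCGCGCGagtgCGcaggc
ZNF93 (plus strand, chr19:19900746-19900945): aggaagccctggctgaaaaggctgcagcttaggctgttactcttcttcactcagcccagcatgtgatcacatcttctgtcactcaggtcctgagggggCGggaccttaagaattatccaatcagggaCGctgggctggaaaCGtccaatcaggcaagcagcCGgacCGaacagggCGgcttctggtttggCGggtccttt
ZNF350 (minus strand, chr19:51986841-51987040): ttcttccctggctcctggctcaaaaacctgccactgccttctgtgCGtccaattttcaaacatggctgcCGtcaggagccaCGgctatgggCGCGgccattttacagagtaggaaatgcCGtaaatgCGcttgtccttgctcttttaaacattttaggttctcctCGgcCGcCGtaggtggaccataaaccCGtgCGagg
ZNF146 (plus strand, chr19:36214906-36215105): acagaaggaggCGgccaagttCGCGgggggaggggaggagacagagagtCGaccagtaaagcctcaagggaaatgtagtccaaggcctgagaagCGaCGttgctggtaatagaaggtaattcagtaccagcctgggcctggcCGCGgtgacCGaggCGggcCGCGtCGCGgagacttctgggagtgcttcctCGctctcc
Counted in them were 22 CpG in ZNF83, 21 in ZNF382, 7 in ZNF93, 12 in ZNF350 and 15 in ZNF146. Over the 300 bases around the start, 93.6% of the 204 members with a RefSeq promoter held at least 10 CpG (the letters CG), against 56.4% of all 35116 promoters in the table.

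The libraries were checked against their labels before the members were compared. In the untreated libraries BRCA1 stood at 126, 111 and 116 CPM (counts relative to the TMM-adjusted library total) in HCC1937-EV and at 166, 122 and 127 CPM in HCC1937-OE-BRCA1, a log2 difference of 0.24 ± 0.11 (SE, n = 3 per line) that did not pass the threshold (adjusted p = 0.0675, edgeR quasi-likelihood test, with adjustment by Benjamini and Hochberg over all genes) and that was 0.54 with an offset for GC content and length (adjusted p = 6.9e-09). Counts over the BRCA1 gene do not tell transcripts of the construct from those of the cell's own gene. HCC1937 is known as a basal-like epithelial line. Of the epithelial adhesion genes, EPCAM lay at or below 0.0617 CPM in the 9 HCC1937-EV libraries and between 252 and 352 CPM in the other 9, and CDH1 between 0.313 and 1.20 CPM against 330 to 488 CPM. KRT5, KRT6A and KRT14 were all at or below 0.124 CPM in HCC1937-EV, against at least 1062, 146 and 21.0 CPM in the other line. KRT17 reached 5.98 CPM against at least 1229 CPM, and the luminal keratins KRT8 and KRT18 and the receptor gene EGFR were high in both lines. Among markers of other cells, COL1A1 lay between 89.0 and 143.5 CPM in HCC1937-EV and between 5.85 and 11.4 CPM in HCC1937-OE-BRCA1, whereas COL1A2, DCN and CD68 stayed at or below 0.373 CPM everywhere. PTPRC had 0 CPM in HCC1937-EV and at most 2.22 CPM in HCC1937-OE-BRCA1, and PECAM1 at most 2.65 and 20.7 CPM. The EPCAM, CDH1 and basal keratin values go against the label of the HCC1937-EV libraries as HCC1937 cells. The libraries are therefore called EV-labelled and OE-labelled from here on, and in every difference between lines the added BRCA1 cannot be told apart from other differences between the cell populations. Total counts ranged from 15081973 to 17571922 per library.

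The sharpest feature of the members was that many had reads in only 1 of the lines. Over the 9 libraries of each line, 155 members had a mean of at least 1 CPM in both lines, 58 had at least 1 CPM in the OE-labelled libraries and under 0.1 CPM in the EV-labelled libraries, and 1 (ZNF556) showed the reverse. Of the remaining 18 members, 11 had at least 1 CPM in the OE-labelled libraries and between 0.1 and 1 CPM in the EV-labelled libraries, 1 (ZNF57) lay above 1 CPM only in the EV-labelled libraries, and 6 lay below 1 CPM in both. These limits were chosen after the values were seen. The 58 were 25.9% of the 224 members with at least 1 CPM in the OE-labelled libraries, and the background for the same rule was 8.36% over all genes. The share was 6.43% of 762 other protein-coding genes of chromosome 19 and 8.93% of 224 protein-coding ZNF genes of other chromosomes, and 28.8% of KRAB-like members against 9.09% of members without a KRAB-like stretch. In the reverse direction the share was 0.637% of 157 members, with a background of 2.66%. These shares are descriptions, and no difference between them was tested.

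In the 58 members the EV-labelled libraries were close to empty. Of them, 41 had 0 counts in all 9 EV-labelled libraries together, and the highest summed count of any of the 58 over those 9 libraries was 12. Their counts summed to 21 in the 3 untreated, 22 in the 3 12 h and 19 in the 3 24 h EV-labelled libraries, and to 32690, 34407 and 38165 in the OE-labelled libraries. Since the 58 were chosen on a mean over all 9 EV-labelled libraries, treated ones included, these sums say nothing of a response to olaparib there. In the OE-labelled libraries 1 of the 58 (ZNF229) was higher at 24 h and 0 were lower by edgeR (backgrounds 4.67% and 3.53%), 11 had an unadjusted p under 0.05, and DESeq2 called 3 higher. The summed level of all 232 members was 2397 ± 52.8 CPM (SD, n = 3) in untreated EV-labelled and 4425 ± 313 CPM in untreated OE-labelled libraries, and the ranges did not overlap (2362 to 2458 against 4214 to 4785 CPM). Between 54 and 58 members had 0 counts in a single EV-labelled library, against 1 or 2 in an OE-labelled library.

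**Figure D1:**
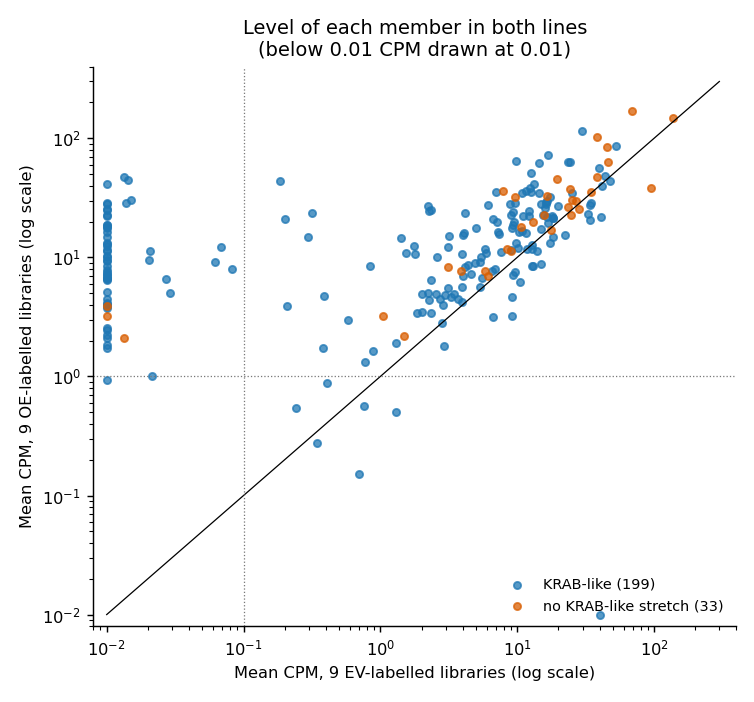
Mean CPM of each of the 232 members in the 9 EV-labelled libraries (x axis, log scale) and the 9 OE-labelled libraries (y axis, log scale), with means below 0.01 CPM drawn at 0.01; dotted lines mark 0.1 and 1 CPM and the diagonal marks equal levels. The 58 members with under 0.1 CPM in the EV-labelled libraries form the strip at the left, and ZNF556 lies alone at the lower right.

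The members under 0.1 CPM in the EV-labelled libraries lay next to each other in several clusters. Cluster 5, which lies beside the centromere on the short arm and is rich in genes expanded in primates, held 17 of the 58 among 30 members, including ZNF93, ZNF43, ZNF85, ZNF100, ZNF626 and ZNF681. Cluster 14 held 14 of the 58 among 38 members, cluster 8 held 9 of 27, cluster 15 held 8 of 59 and cluster 3 held 7 of 21. In clusters 1, 2, 4, 6, 7, 9, 10 and 13, with 32 members in all, there were 0. Counting also members between 0.1 and 1 CPM in the EV-labelled libraries, the longest unbroken run was 9 neighbouring members, from ZNF253 to ZNF85, and the next were 7 members each, from ZNF429 to ZNF724 and from ZNF610 to ZNF83. Expressed members lay directly beside members with few or no reads. ZNF529 had 18.8, 19.6 and 18 CPM in the untreated EV-labelled libraries, while ZNF382, which overlaps its start on the opposite strand, had 0.186, 0 and 0.0617 CPM. ZNF765 had 14.2, 12.9 and 15.2 CPM where ZNF525, which overlaps it on the same strand, had 0 in all 3. ZNF480 had 19.4, 14.3 and 15.4 CPM, and the next member, ZNF610, had 0 in all 3. Among 84 other protein-coding genes inside the cluster spans with at least 1 CPM in the OE-labelled libraries, 10 (11.9%) were under 0.1 CPM in the EV-labelled libraries.

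**Figure D2:**
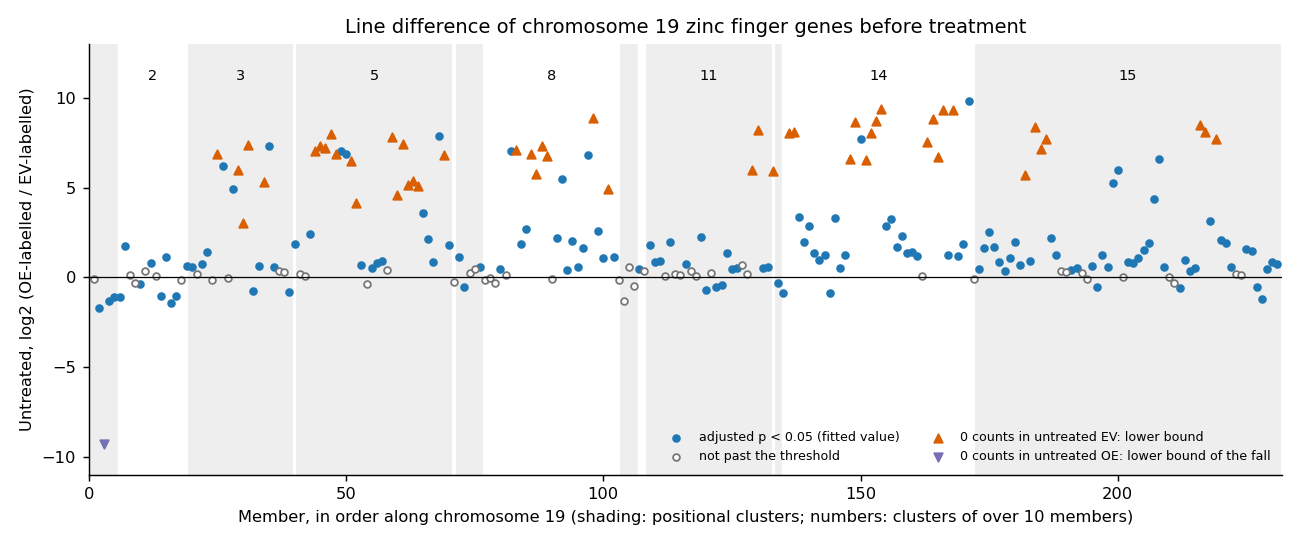
Log2 difference of untreated OE-labelled against EV-labelled libraries (y axis) for the 231 tested members in order along chromosome 19 (x axis), with positional clusters shaded alternately; filled circles passed an adjusted p of 0.05, open circles did not, and triangles are bounds where a line had 0 counts. The bounds gather in clusters 3, 5, 8, 14 and 15, and the members of cluster 1 at the left end lie below 0.

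In the test of untreated lines (3 against 3 libraries, edgeR fit over 18335 genes), 162 of 231 members were higher in the OE-labelled libraries and 22 were lower, with backgrounds of 39.4% higher and 33.3% lower over all genes. Of the 198 tested KRAB-like members 136 were higher and 21 lower, and of the 33 others 26 were higher and 1 lower. The median log2 difference of the members was 1.09, and it was also 1.09 with the 49 members at 0 counts in the untreated EV-labelled libraries set at their bound; over all genes tested it was 0.11. Among the 155 members with at least 1 CPM in both lines, 93 were higher and 20 lower, with a median of 0.56. The backgrounds and median above cover all genes tested, also those under 1 CPM in a line. They are therefore not directly comparable with the values of these 155. With the offset for GC content and length, 170 were higher and 19 lower over all tested members, with backgrounds of 42.2% and 33.8%. Over the 155, the Spearman correlation of the untreated difference with GC content was -0.0006 without the offset and -0.25 with it. With exonic length it was 0.036 without the offset and 0.22 with it. For this comparison the offset thus brought in a trend among members and removed none. At 12 h, 177 members were higher and 19 lower (backgrounds 38.8% and 34.1%), and at 24 h 176 were higher and 19 lower (39.9% and 34%). Of the 67 members named by rule and tested, 47 were higher and 12 lower at 12 h, and 47 higher and 14 lower at 24 h. The 67 include 12 members named as higher and 12 named as lower for the untreated difference between the same lines. These counts therefore partly follow from the naming and are no separate support for a line difference.

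By cluster, the calls for the untreated lines were 26 higher and 0 lower of 30 tested in cluster 5, 21 and 0 of 27 in cluster 8, 34 and 2 of 38 in cluster 14, 46 and 4 of 59 in cluster 15, 13 and 3 of 24 in cluster 11, and 13 and 2 of 20 in cluster 3. These counts include members of the 58, which passed the count minimum through the OE-labelled libraries alone and could not be called lower. They numbered 17 in cluster 5, 9 in cluster 8, 14 in cluster 14, 8 in cluster 15, 2 in cluster 11 and 7 in cluster 3. The median log2 difference was 4.86 in cluster 5 with 0-count members at their bound (7.11 as fitted), 2.87 in cluster 14, 2.01 in cluster 8 and 0.87 in cluster 15. Summed over members and averaged over all 9 libraries of a line, cluster 14 stood at 257.6 CPM in the EV-labelled and 1084 CPM in the OE-labelled libraries, cluster 15 at 824.6 and 1690 CPM, and cluster 1 at 69.3 and 15.5 CPM. The 11 members between 0.1 and 1 CPM in the EV-labelled libraries spanned a wide range in the OE-labelled libraries. ZNF528 had a mean of 0.184 CPM in the former and 43.7 CPM in the latter, and ZNF585B 0.315 and 23.6 CPM, whereas ZNF233 had 0.773 and 1.33 CPM.

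The members with the largest differences were genes with 0 counts in the untreated EV-labelled libraries. Their fold differences are lower bounds, set against 3 counts over the 3 libraries. ZNF83 (chr19:52594060-52690496), a KRAB zinc finger gene of cluster 14, had 47.5, 40.8 and 36.3 CPM in the untreated OE-labelled libraries and 0 in the EV-labelled libraries, at least 672-fold higher. ZNF677 (chr19:53235381-53254898), of the same cluster, had 45.0, 34.9 and 40.6 CPM against 0, at least 649-fold higher. Both had at least 34.9 CPM in every OE-labelled library, and ZNF83 reached 0.120 CPM in a single EV-labelled library at 24 h. ZNF525 (at least 644-fold), ZNF793 (464-fold), ZNF347 (448-fold), ZNF701 (420-fold) and ZNF880 (407.5-fold) followed. ZNF418 (363-fold), ZNF667 (335-fold), ZNF229 (293-fold), ZNF256 (274-fold) and ZNF649 (274-fold) completed the 12, each bound computed as for ZNF83. These 12 passed the count filter only through the OE-labelled libraries, and the naming rule required groups that did not overlap. ZNF83, ZNF525, ZNF347, ZNF701 and ZNF649 each overlap another gene on the same strand, so their counts are uncertain.

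Of the 22 members that were lower, 9 lay in clusters 1 and 2. ZNF556 (chr19:2867335-2883445), a KRAB zinc finger gene of cluster 1, had 38.8, 37.5 and 37.8 CPM in the untreated EV-labelled libraries and 0 in all 9 OE-labelled libraries, at least 613-fold lower. Its neighbours in cluster 1 were lower as well: ZNF555 had 10.9, 9.77 and 9.93 CPM in the EV-labelled and 3.57, 3.27 and 2.58 CPM in the OE-labelled libraries, a log2 difference of -1.70 ± 0.16 (SE, adjusted p = 3.66e-09). ZNF57 and ZNF77 differed by -1.33 and -1.07 on the log2 scale, and ZNF554, the remaining member there, was not called, so 4 of 5 members of cluster 1 were lower. In cluster 2, 5 of 14 members were lower and 4 higher. ZNF121 had 110, 83.6 and 104 CPM against 38.7, 36.2 and 33.2 CPM (log2 -1.46 ± 0.13, adjusted p = 8.17e-10), and ZNF557, ZNF561 and ZNF266 differed by -1.09, -1.06 and -1.02. Elsewhere ZNF132, ZNF175, ZNF616 and ZNF791 were lower by -1.20, -0.88, -0.85 and -0.82 on the log2 scale. The naming rule required of these 12 too that the untreated libraries of the lines did not overlap.

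Of the retroelement-binding repressors, 7 of 7 measured were higher in the OE-labelled libraries (background 39.4%), with a median log2 difference of 2.88 against 0.11 over all genes. ZNF257, an 8th on the list, was below the count minimum. ZNF91, which binds SVA elements and L1, had 9.57, 9.02 and 8.20 CPM in untreated EV-labelled and 56.3, 28.8 and 31.4 CPM in OE-labelled libraries (log2 2.12 ± 0.24, adjusted p = 4.3e-08). ZNF93, which binds the older L1 elements, had 0 counts in all 9 EV-labelled libraries and 12.7, 8.75 and 7.62 CPM in the untreated OE-labelled libraries, at least 157-fold higher. ZNF649 and ZNF808 were likewise at 0 in every EV-labelled library, with bounds of 274-fold and 268-fold. Like ZNF93, they passed the count minimum through the OE-labelled libraries alone and could not be called lower. ZNF808 shares 22.3% of its 50-base windows with other genes, mainly ZNF701, so its level is uncertain. ZNF611, ZNF274 and ZNF765 were expressed in both lines and were higher by 2.88, 1.94 and 1.20 on the log2 scale. ZNF274, which binds the 3′ ends of zinc finger genes themselves, had 27.6, 28.2 and 31.1 CPM against 107, 111 and 115 CPM. With olaparib edgeR called 0 of the 7 in either line at either time. The backgrounds at 24 h were 8.7% higher and 5.2% lower in the EV-labelled and 4.67% and 3.53% in the OE-labelled libraries. ZNF93, ZNF649 and ZNF808, without counts in the EV-labelled libraries, could not be called there. At 12 h 1 of the 7 had an unadjusted p under 0.05 and DESeq2 called 1 lower in the EV-labelled libraries, with 0 and 0 in the OE-labelled libraries. At 24 h, 3 had an unadjusted p under 0.05 in the EV-labelled and 1 in the OE-labelled libraries, where DESeq2 called 1 and 0. ZNF91 stood at 6.26, 4.54 and 5.09 CPM in the EV-labelled libraries at 24 h, all below the untreated values (log2 -0.75, adjusted p = 0.053).

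Of 14 genes listed for reported promoter methylation in tumours, 13 were members, ZNF177 being below the count minimum, and 12 were higher and 1 lower (backgrounds 39.4% and 33.3%). Their median log2 difference was 7.02 with 0-count genes at their bound, against 8.72 as fitted and 0.11 over all genes. DNA methylation was not measured in this series. ZNF135, ZNF415, ZNF471, ZNF577, ZNF582, ZNF667 and ZNF677 had 0 counts in every EV-labelled library. They passed the count minimum through the OE-labelled libraries alone and could not be called lower. ZNF382 had 4 counts in the untreated EV-labelled libraries and 567 in the OE-labelled, a 142-fold difference (95% counting interval 55.2 to 524). ZNF671 had 4 and 423 counts, a 106-fold difference (41.1 to 391), and ZNF154 had 9 and 193 counts, a 21.5-fold difference (11.1 to 47.8). ZNF569 and ZNF583 were higher by 1.66 and 0.89 on the log2 scale. ZNF132 was the member that was lower, at 6.96, 7.54 and 5.55 against 2.22, 2.77 and 3.72 CPM. At 24 h of olaparib edgeR and DESeq2 called 0 of the 13 in either line, with 1 at an unadjusted p under 0.05 in each. The shares over all genes were those given for the retroelement-binding repressors. Members at 0 counts in every EV-labelled library could not be called there, and ZNF382, ZNF671 and ZNF154 had few counts. For that line the 0 of 13 is therefore not comparable with the share over all genes. Over the 49 promoters listed for the 58 members, the median was 17 CpG in 300 bases, against 22 CpG over 139 promoters of members expressed in both lines. Cluster 5, which holds 17 of the 58, had few CpG in both kinds of member. Its listed promoters held 9 (ZNF708) to 18 CpG (ZNF101) in members expressed in both lines. In its members of the 58 they held 8 (ZNF626) to 16 CpG (ZNF726). The medians were not compared within clusters.

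Of 6 members with roles in DNA damage, RNA processing or imprinting, 1 was higher and 1 lower in the OE-labelled libraries (backgrounds 39.4% and 33.3%), with a median log2 difference of -0.05. ZNF350 (ZBRK1), a partner of BRCA1 in repression of GADD45A, had 3.04, 4.76 and 3.89 CPM in untreated EV-labelled and 17.2, 15.6 and 13.5 CPM in OE-labelled libraries, a log2 difference of 1.98 ± 0.16 (adjusted p = 1.54e-10). ZNF473, which binds the histone pre-mRNA processing machinery with the U7 snRNP, was lower by -0.34 ± 0.10 (adjusted p = 0.00468). ZNF420 (Apak), a regulator of p53, differed by -0.09, ZNF224 by 0.22, the imprinted ZNF331 by -0.07 and ZNF146 by -0.02, none past the threshold. At 24 h of olaparib edgeR and DESeq2 called 0 of the 6 in either line (edgeR backgrounds 8.7% higher and 5.2% lower in the EV-labelled, 4.67% and 3.53% in the OE-labelled libraries), with 2 at an unadjusted p under 0.05 in the EV-labelled and 1 in the OE-labelled libraries. ZNF350 then stood at 3.66, 3.36 and 3.71 CPM in the EV-labelled and 18.6, 18.6 and 18 CPM in the OE-labelled libraries. Per kilobase of exon, the highest members in the EV-labelled libraries were ZNF146 at a mean of 33.1 CPM per kb, ZNF787 at 18.9, ZNF579 at 13.7, ZNF428 at 13.7 and ZNF121 at 13. In the OE-labelled libraries they were ZNF787 at 46.3 CPM per kb, ZNF146 at 35.5, ZNF865 at 25.7, ZNF579 at 25.3 and ZNF524 at 23.6. All 7 of these genes lack a KRAB-like stretch.

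After 12 h of olaparib no member was called in either line by edgeR. In the EV-labelled libraries 31 of 231 members had an unadjusted p under 0.05 (background 16.1%), DESeq2 called 4, and the shares called over all genes were 0.0273% higher and 0.0164% lower. The 231 include the 58 members close to empty in these libraries, of which 0 had such a p. The 31 are therefore not directly comparable with the background. In the OE-labelled libraries 10 members had an unadjusted p under 0.05 (background 11.5%), DESeq2 called 0, and the shares called over all genes were 1.72% higher and 0.594% lower. The test of the difference between the lines' responses at 12 h also called 0 members, with 28 at an unadjusted p under 0.05 (background 14.6%), 3 calls by DESeq2, and backgrounds of 0.382% and 0.136%. Here too 0 of the 58 had an unadjusted p under 0.05. Among members with at least 1 CPM in the line, the median log2 change at 12 h was -0.13 over 157 in the EV-labelled and 0.06 over 224 in the OE-labelled libraries.

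At 24 h, 7 members rose and 18 fell in the EV-labelled libraries, with backgrounds of 8.7% higher and 5.2% lower over all genes. All 25 were among the 157 members with at least 1 CPM in the line, and the median change of these 157 was -0.21 on the log2 scale, against -0.01 over all genes at that level. The 7 that rose were all members without a KRAB-like stretch, and 16 of the 18 that fell were KRAB-like, as were 127 of the 157. ZNF428 (chr19:43607219-43619874), which encodes 1 recognised finger, rose from 10.4, 17.2 and 16.1 CPM to 32.5, 34.0 and 31.5 CPM, a log2 change of 1.16 ± 0.23 (SE, adjusted p = 0.00393). ZNF524 (chr19:55600022-55603138) rose from 6.27, 5.50 and 7.40 to 13.8, 13.5 and 10.5 CPM (0.98 ± 0.20, adjusted p = 0.00596). ZNF579, a near neighbour of ZNF524 in cluster 15, rose from 29.3, 36.8 and 31.0 to 62.8, 53.2 and 51.3 CPM (0.78 ± 0.18, adjusted p = 0.00938). In each of these the treated and untreated libraries did not overlap. ZNF358, ZNF581 and ZNF784 rose by 0.87, 0.82 and 0.69, and ZNF787 by 0.57. ZNF581 overlaps ZNF580 on the same strand and shares 18.4% of its 50-base windows with other genes, and ZNF428 and ZNF524 overlap SRRM5 and FIZ1 on the opposite strand, so their counts are uncertain.

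The 18 that fell ranged from -0.81 to -0.33 on the log2 scale. ZNF738 (chr19:21358930-21379302), which keeps a KRAB-like stretch but no recognised finger, fell from 14.8, 8.71 and 12.6 CPM to 7.85, 5.48 and 7.37 CPM, a log2 change of -0.81 ± 0.20 (adjusted p = 0.0144). ZNF283 was steady among replicates, at 12.5, 12.6 and 12.2 CPM untreated and 8.15, 7.96 and 7.19 CPM at 24 h (-0.68 ± 0.18, adjusted p = 0.0191). Its call was still lost in 5 of 28 alternative fits, each of them leaving out 1 library. ZNF507, a member without a KRAB-like stretch, fell from 47.4, 41.1 and 41.6 to 25.1, 27.5 and 30.5 CPM (-0.64 ± 0.17, adjusted p = 0.0159). In all 3 the groups did not overlap. ZNF225, ZNF493 and ZNF480 fell by 0.77, 0.75 and 0.63 on the log2 scale, and ZNF587B, the smallest change called, by 0.33. Among protein-coding ZNF genes of other chromosomes 15 rose and 22 fell of 233 tested, and among the other protein-coding genes of chromosome 19 221 rose and 7 fell of 845. These calls rested on few libraries: without the first untreated EV-labelled library 5 members were called, and without the first or the second EV-labelled 24 h library 7 or 6. Without the first untreated OE-labelled library, which enters only through the shared filter, scaling and estimate of spread, 41 were called.

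In the OE-labelled libraries 3 members rose and 3 fell at 24 h, with backgrounds of 4.67% higher and 3.53% lower. ZNF787, ZNF579 and ZNF580 fell. ZNF787 (chr19:56087366-56121280) had 152, 248 and 207 CPM untreated and 134, 136 and 116 CPM at 24 h (-0.66 ± 0.15, adjusted p = 0.0105), and ZNF579 had 74.6, 127 and 102 against 67.4, 66.6 and 53.3 CPM (-0.69 ± 0.17, adjusted p = 0.0165). The first untreated library was the lowest of its group in both, and the untreated and treated libraries did not overlap. ZNF580 fell by 0.42. ZNF229, one of the members at 0 in the EV-labelled libraries, rose from 20.3, 14.5 and 19.6 to 25.6, 28.1 and 25.1 CPM (0.53 ± 0.15, adjusted p = 0.0444), and ZNF548 and ZNF761 rose by 0.45 and 0.34. Under the alternatives ZNF229 lost its call in 13 of 27 fits, ZNF548 in 17 of 28, ZNF761 in 11 of 28, the GC content and length offset among them, and ZNF580 in 20 of 28, whereas ZNF579 and ZNF787 lost theirs in 2 of 28. The median change of the 224 members with at least 1 CPM in the line was 0.14, against 0.02 over all genes at that level. Without the first untreated OE-labelled library 34 members were called, 25 higher and 9 lower, and without the second 0 were called.

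**Figure D3:**
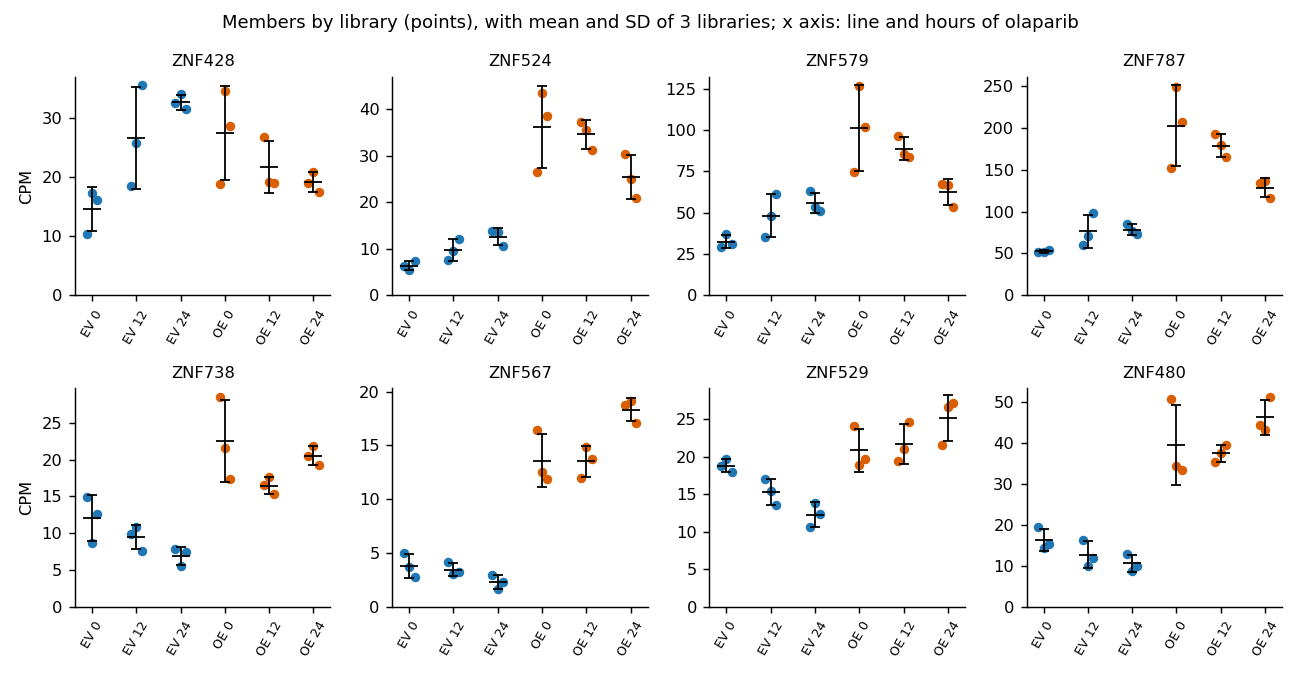
CPM of 8 members in each library (points), with the mean and SD of 3 libraries (bars), for untreated, 12 h and 24 h libraries of the EV-labelled (blue) and OE-labelled (orange) lines. ZNF428, ZNF524, ZNF579 and ZNF787 are higher at 24 h in the EV-labelled libraries and have lower means at 24 h in the OE-labelled libraries, and ZNF738, ZNF567, ZNF529 and ZNF480 are lower at 24 h in the EV-labelled libraries.

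The change at 24 h differed between the lines for 36 of 231 members: 26 were more positive in the OE-labelled libraries and 10 more negative, with backgrounds of 8.18% and 11.2%. The 231 include the 58 members close to empty in the EV-labelled libraries, of which 0 were called. The 26 included 25 KRAB-like members and the 10 included 0, where 125 of the 155 members with at least 1 CPM in both lines were KRAB-like. ZNF567 had 4.97, 3.65 and 2.71 CPM untreated and 2.95, 1.65 and 2.28 CPM at 24 h in the EV-labelled libraries, and 16.4, 12.5 and 11.8 against 18.8, 19.1 and 17.1 CPM in the OE-labelled libraries, a difference of the log2 changes of 1.15 ± 0.30 (adjusted p = 0.0118). ZNF529 differed by 0.89 ± 0.20 (adjusted p = 0.00524), and ZNF460, ZNF225 and ZNF493 by 1.30, 1.08 and 1.04. Of these, ZNF460 lost its call in 18 of 28 alternative fits, ZNF225 and ZNF493 in 8 each, and ZNF529 in 3. In the other direction ZNF428 differed by -1.68 ± 0.32 (adjusted p = 0.0018), ZNF524 by -1.49, ZNF579 by -1.48, ZNF358 by -1.24 and ZNF787 by -1.23. The count moved from 36 to 75 without the first untreated OE-labelled library and to 14 without the second.

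The 24 h changes followed GC content across members. Over the 157 members at 1 CPM or more in the EV-labelled libraries, the Spearman correlation of GC content with the log2 change was 0.61, and over the 224 in the OE-labelled libraries it was -0.35. For exonic length the values were -0.31 and 0.085. These are descriptions across genes, which share libraries and are not independent. Of the 44 members at 1 CPM or more among the 77 of lowest GC content, 0 rose and 10 fell in the EV-labelled libraries by edgeR, with a median change of -0.39. Of the 66 among the 77 of highest GC content, 7 rose and 4 fell, with a median of -0.03. With an offset per library for the trend of GC content and length, fitted on 11916 genes that are not ZNF genes, the GC correlations were 0.21 and -0.069. The calls in the EV-labelled libraries then numbered 5 higher and 10 lower (backgrounds 7.3% and 6.78%), of which 10 were shared with the 25 found without the offset. ZNF428, ZNF524 and ZNF579 remained higher, at 0.78, 0.45 and 0.34, and ZNF738, ZNF283, ZNF507 and ZNF480 remained lower, at -0.62, -0.45, -0.33 and -0.42. ZNF358, ZNF581, ZNF784, ZNF787, ZNF225 and ZNF493 were no longer called there. In the OE-labelled libraries 4 were higher and 2 lower (backgrounds 7.71% and 8.28%), ZNF579 and ZNF787 remaining lower at -0.46 and -0.42. For the difference between responses 12 were higher and 4 lower (8.06% and 9.88%), and the medians over members at 1 CPM or more were -0.14 for the EV-labelled, 0.07 for the OE-labelled libraries and 0.20 for the difference.

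**Figure D4:**
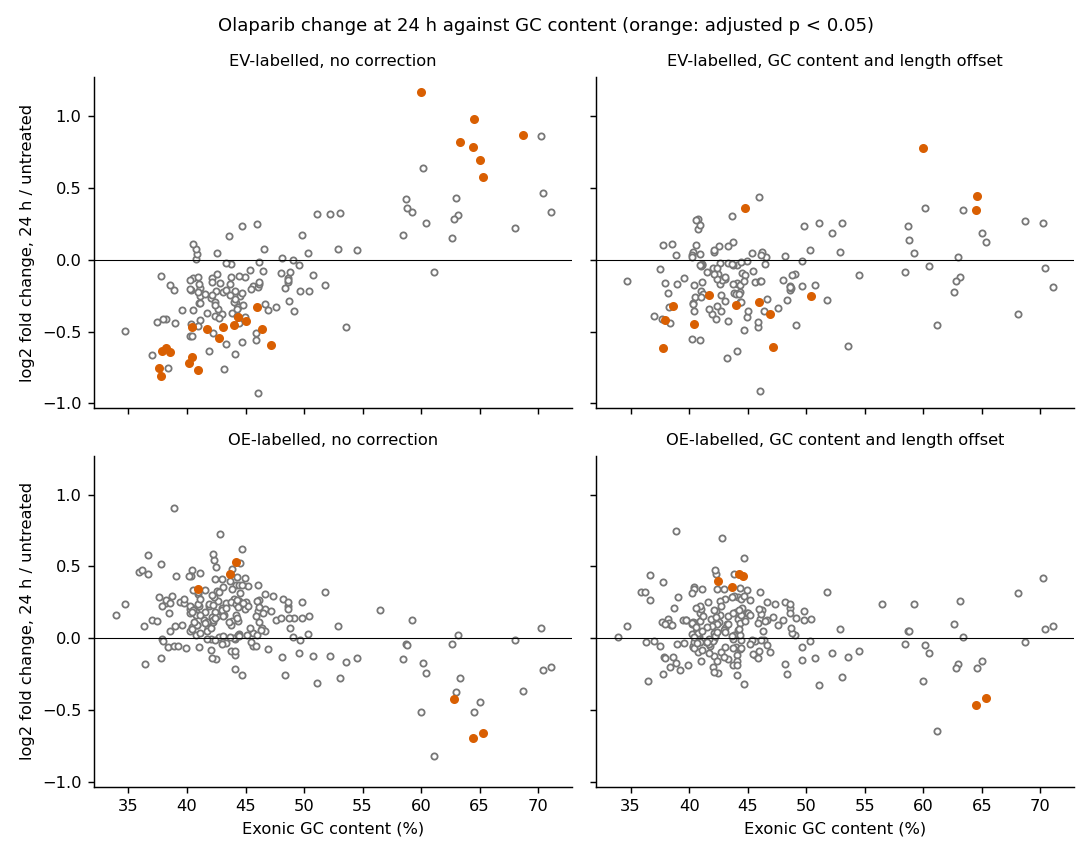
Log2 change at 24 h (y axis) against exonic GC content in percent (x axis) for members with at least 1 CPM in the EV-labelled (top, 157 members) and OE-labelled (bottom, 224 members) libraries, without (left) and with (right) the GC content and length offset; filled orange points passed an adjusted p of 0.05. The upward slope of the top left panel (Spearman 0.61) is 0.21 with the offset.

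The same trend ran through single libraries. For each library the deviation from its line's mean was correlated with GC content over the other genes, and that correlation ranged from -0.57 to 0.61. It differed in sign between libraries of a single condition, at -0.57, 0.29 and 0.54 in the untreated OE-labelled and -0.54, -0.19 and 0.61 in the EV-labelled 12 h libraries. Within the other conditions it kept its sign. It was -0.54, -0.22 and -0.40 in the untreated and 0.26, 0.57 and 0.39 in the 24 h EV-labelled libraries, so there it ran along with the treatment. In the OE-labelled libraries it was 0.54, 0.18 and 0.21 at 12 h and -0.28, -0.38 and -0.44 at 24 h. The median deviation of the KRAB-like members had the sign opposite to it in 15 of 18 libraries, and that of the members without a KRAB-like stretch had its sign in 16 of 18. The first untreated OE-labelled library, with KRAB-like members at 0.10 above the line's mean on the log2 scale, stood apart from the other 2 of its condition, at -0.19 and -0.20. In the EV-labelled libraries at 24 h the offset removes a change with olaparib that follows GC content together with a trend of the libraries. The 2 cannot be told apart there, and the part of the library trend in the olaparib changes of the members was not tested.

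**Figure D5:**
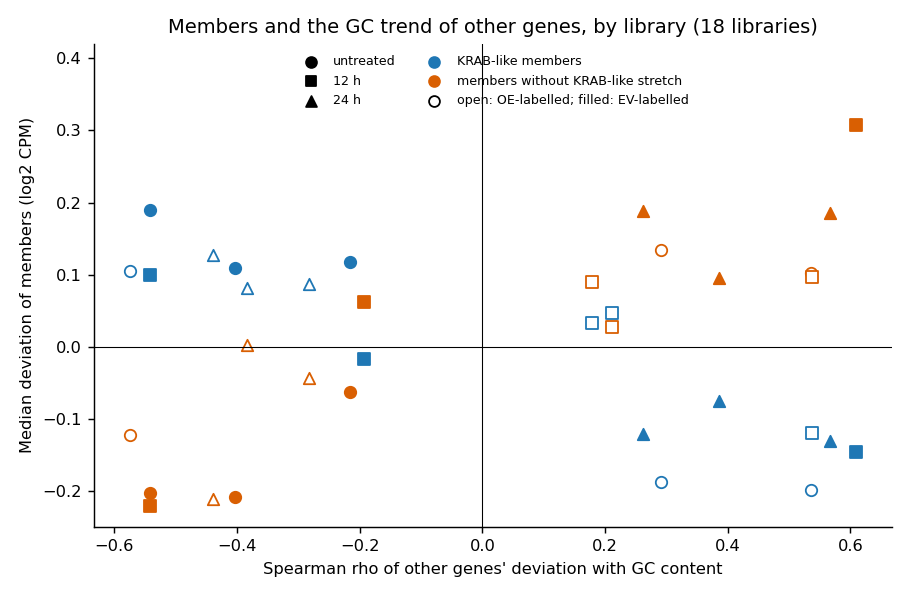
Median deviation from the line's mean log2 CPM (y axis) of KRAB-like members (blue) and members without a KRAB-like stretch (orange) against the Spearman correlation of other genes' deviation with GC content (x axis), for the 18 libraries; marker shapes give the time and filled markers the EV-labelled line. KRAB-like members range from -0.20 to 0.19 and lie mostly above 0 on the left and below 0 on the right.

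The genes of the KRAB co-repressor pathway were counted as a fixed list of 23, none of them members. In untreated libraries 7 were higher and 8 lower in the OE-labelled line, with a median log2 difference of -0.10 and backgrounds of 39.4% and 33.3%. TRIM28, the scaffold bound by KRAB domains, had 649, 684 and 639 CPM in the EV-labelled and 894, 1383 and 1313 CPM in the OE-labelled libraries (0.86 ± 0.14, adjusted p = 1.14e-05). SETDB1, the H3K9 methyltransferase it recruits, had 65.3, 66.8 and 60.9 against 34.5, 30.6 and 36.4 CPM (-0.93 ± 0.10, adjusted p = 2.83e-08). At 24 h of olaparib 1 rose and 2 fell in the EV-labelled libraries (backgrounds 8.7% and 5.2%) and 0 were called by edgeR in the OE-labelled libraries, where the backgrounds were 4.67% and 3.53%, 5 had an unadjusted p under 0.05 and DESeq2 called 3. The 3 called, named after their values were seen, were the deacetylase gene HDAC1 at 0.41, the ATPase gene MORC3 at -0.61 and RESF1, a retroelement silencing factor, at -0.65.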

How the data were processed

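RNA of HCC1937-EV and HCC1937-OE-BRCA1 was extracted with TRIzol and sequenced in 18 libraries. The authors deposited raw read counts per gene. The submitters' processing notes name HISAT2, featureCounts, DESeq2 and GRCh38 with no versions. The annotation, the use of strand and the handling of reads that map to several places are not given in the sources used here. Of 35023 rows, 33867 (96.7%) were found in GENCODE 29 by Ensembl ID, from which gene type, exonic GC content, length and overlaps were taken. C2H2 fingers and KRAB-like stretches were found in its translated coding sequences, and promoters came from RefSeq (GRCh38.p14).

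Counts were fitted with edgeR 4.0.16 (R 4.3.3) by the quasi-likelihood test, with a mean for each condition over all 18 libraries, TMM scaling, filterByExpr (count minimum 10) and Benjamini-Hochberg adjustment over 18335 genes. A call is an adjusted p under 0.05. Levels are CPM on TMM-scaled library sizes, and a log2 fold change is given with its standard error. The replicate coefficient of variation was 12.9%. Libraries of 15081973 to 17571922 counts put a floor of 3 counts over a group of 3 libraries, and intervals and floors cover counting error only. The GC content and length offset was a spline with 5 degrees of freedom per library over 11916 genes. The scripts were tested on simulated data.

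Named were the members with the largest change among those called, with at least 1 CPM and groups that did not overlap: up to 6 each way per olaparib comparison, 12 each way for the untreated lines and 5 each way for the difference between responses, together with members of the lists. The members and lists were chosen with earlier results of these data known. The replicate numbers did not pair the libraries: correlations of same-numbered libraries' deviations fell as low as -0.35. Alternatives were DESeq2 1.42.0, its size factors, other filters, the offset, a replicate block, the compared libraries alone, a fold minimum and leaving out each library. A gene of the cell line check is not reported here.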

Additional observations from a re-analysis of the deposited data

Results flagged for a closer look

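The olaparib response at 24 h differed between the lines, by the test of the difference itself (edgeR quasi-likelihood interaction contrast with Benjamini-Hochberg adjustment), for 36 members. Given as the OE-labelled minus the EV-labelled log2 change, the more positive were ZNF460 at 1.30 (adjusted p = 0.0398), ZNF567 at 1.15 (0.0118), ZNF225 at 1.08 (0.0256), ZNF493 at 1.04 (0.0229) and ZNF529 at 0.89 (0.00524). The more negative were ZNF428 at -1.68 (adjusted p = 0.0018), ZNF524 at -1.49 (0.00152), ZNF579 at -1.48 (0.00084), ZNF358 at -1.24 (0.00273) and ZNF787 at -1.23 (0.00133). With the GC content and length offset ZNF567, ZNF428, ZNF524, ZNF579 and ZNF787 were still called, at 0.87, -1.07, -0.65, -0.80 and -0.54, and ZNF460, ZNF225, ZNF493, ZNF529 and ZNF358 were not. Over 28 alternative fits, ZNF460 lost its call in 18, ZNF225 and ZNF493 in 8 each, ZNF529 and ZNF358 in 3 each and ZNF567 in 1. ZNF428, ZNF524, ZNF579 and ZNF787 kept theirs in all 28. The difference had a Spearman correlation of -0.63 with GC content over 155 members without the offset and of -0.20 with it.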

How the results depend on the processing

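Of 52 results for named members, 30 kept their direction and call under every alternative fitted, 22 lost the call under at least 1, and 0 reversed. All 22 losses fell on olaparib or response results, and every untreated line difference kept its call. Of the olaparib results only ZNF428 and ZNF524 in the EV-labelled libraries at 24 h kept theirs throughout. Of the response results at 24 h only ZNF428, ZNF524, ZNF579 and ZNF787 did. Members called at 24 h in the EV-labelled libraries numbered 25, and 15 with the GC content and length offset, 15 with ZNF genes in its trend and 52 in the compared libraries alone. They ranged from 5 to 41 when each library was left out. In the OE-labelled libraries 6 were called, and 10 by DESeq2, 2 in the compared libraries alone, 3 with a log2 change over 0.5, and 0 to 34 leaving out each library (0 without the second untreated or the third 24 h library, 34 without the first untreated). The difference between responses at 24 h had 36 calls, 16 with the offset, 16 with ZNF genes in the trend, and 14 to 75 leaving out each library. For the untreated lines 184 were called, 115 with at least 10 counts required in every library, which leaves fewer members to test, and 174 to 187 leaving out each library. The same filter gave 34 named members at 12 h and 34 at 24 h, against 59 and 61, with 55 to 59 and 56 to 62 leaving out each library. At 12 h, against 0 calls, the EV-labelled count was 4 by DESeq2, 5 with no filter, 2 with either offset and 0 to 8 leaving out each library. The OE-labelled count was 1 with either offset and 0 to 0 leaving out each library. The count for the difference between responses was 3 by DESeq2, 2 with no filter, 1 with 10 counts in every library, 7 with either offset and 0 to 11 leaving out each library. Where no value above shows the reason, the cause was not tested.

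The replicate numbers did not meet the pairing check. With the replicate block 3 members were called in the OE-labelled libraries at 24 h against 6. With the block and the offset together the counts were 1 and 15 in the EV-labelled libraries at 12 h and 24 h, 1 in the OE-labelled libraries at 12 h, and 6 and 16 for the difference between responses at 12 h and 24 h.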
